A study of Homo sapiens with 6 samples.

Results

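The genes described here form the insulin-like growth factor (IGF) axis: the binding proteins IGFBP2, IGFBP3, IGFBP4, IGFBP5 and IGFBP6, the ligand IGF1, the receptors IGF1R and IGF2R, and the adaptors IRS1 and IRS2. Of these 10 genes, 9 had a probe set that the platform annotation gives to them alone, out of 18417 such genes on the array. IGFBP6 shares its probe set with another gene and is given no value. A gene with several probe sets is represented by the one that was brightest on average. The 10 genes were chosen on the difference between treated and parent cells as these same arrays had measured it, IGFBP5 having the deepest fall on the array, so their own differences are given as a description, without a test.

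WM164 is a human melanoma cell line labelled as BRAF mutant, grown in RPMI medium with fetal calf serum. Parent cells, labelled control and, per the series title, exposed to DMSO, were set against IDTC colonies treated with 500 nM PLX4032 for 60 days, which the labels call resistant. PLX4032 (vemurafenib) inhibits mutant BRAF. Each group had 3 samples, and every sample was hybridised to a separate Affymetrix whole-transcript array and is given as log2 expression values. Whether the 3 samples of a group were separate cultures is not stated, so any p-value reflects the spread among 3 preparations that may be technical repeats. No batch is given in the sources used here, and one that followed the groups cannot be told apart from treatment.

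IGF1 and IGF2 are secreted ligands that activate IGF1R, a tyrosine kinase receptor of the insulin receptor family. The receptor recruits IRS1 and IRS2, which pass the signal to PI3K and AKT and onward to mTOR and the FOXO factors, while other adaptors lead to RAS and ERK. The IGFBPs hold the ligands outside the cell and can withhold or deliver them, and IGF2R clears IGF2 and sorts lysosomal enzymes. In melanoma, IGF1R signalling has been studied as a route by which cells survive inhibition of BRAF.

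Group differences among the 9 measured genes were concentrated in IGFBP5 and the IRS adaptors. IGFBP5 was 27.2-fold lower in the colonies, IRS2 was 2.15-fold higher and IRS1 2.08-fold higher. IGFBP2 was 1.56-fold lower. IGFBP3, IGFBP4, IGF1, IGF2R and, on its brighter probe set, IGF1R each differed by less than 0.1 on the log2 scale. The other IGF1R probe set differed by 0.65 ± 0.06. A difference of at least 2-fold was thus found in 3 of the 9 genes, against 5.41% of all genes on the array (2.65% higher and 2.76% lower), and the values of the 3 arrays per group did not overlap in 6 of the 9, against 50.8% of all genes. The median difference of the 9 genes was -0.04, beside 0.00 for all genes.

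**Figure D1:**
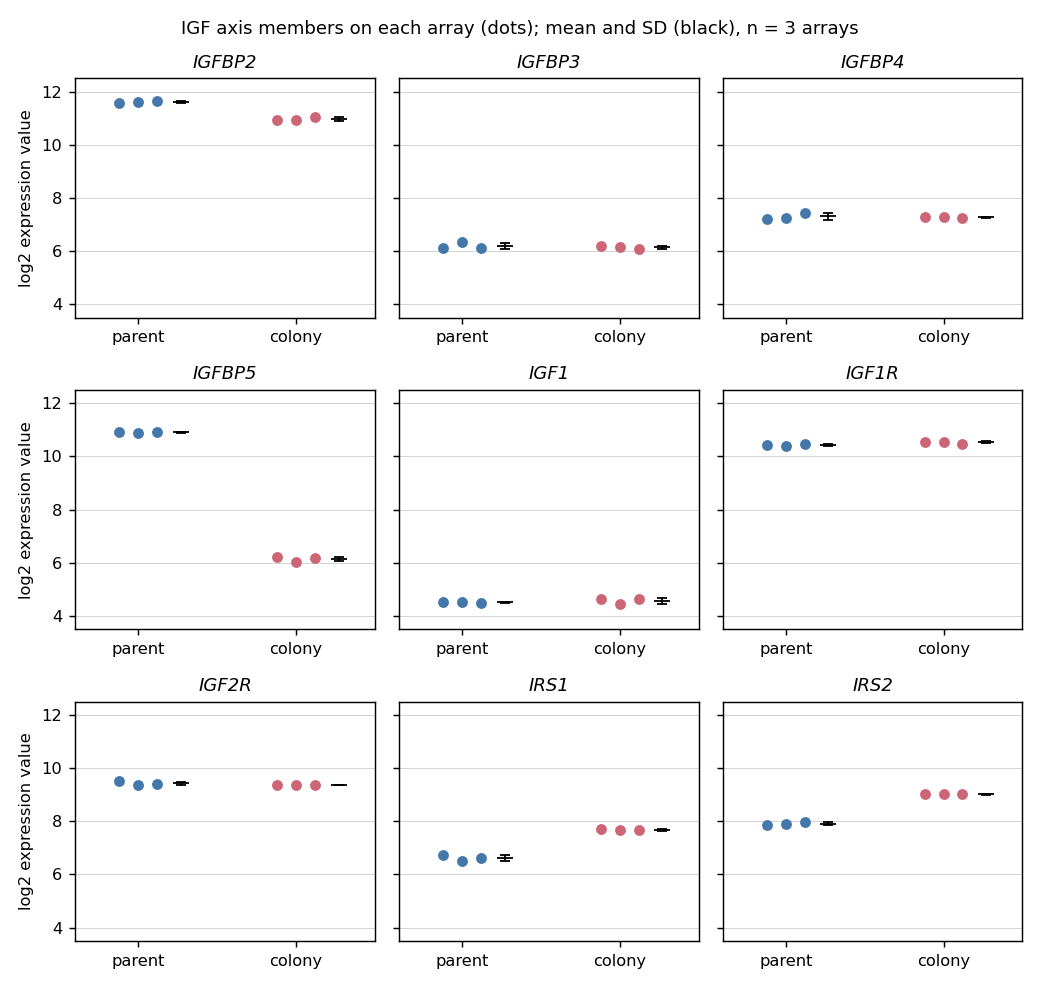
Log2 expression value (vertical axis) of each of the 9 measured genes on the 3 parent arrays (blue) and the 3 colony arrays (red), with the mean and SD in black. IGFBP5 stands near 10.92 in parent cells and 6.15 in colonies, and IRS1 and IRS2 are about 1 log2 unit higher in colonies. The other genes differ little or, for IGFBP2, by -0.64. IGF1R is shown by its brighter probe set only.

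IGFBP5 (probe set 8058857) encodes a binding protein that holds IGFs at the cell surface and in the matrix. Its log2 values were 10.91, 10.90 and 10.94 in parent cells and 6.21, 6.05 and 6.19 in colonies. The parent arrays were all high and nearly equal, the colony arrays were all low, and the lowest parent array stood 4.68 above the highest colony array. The difference, colony minus parent, was -4.77 ± 0.05 (log2, ± SE of the fit, n = 3 per group), which ranked 1 among the falls of all 18417 genes. The colony mean of 6.15 ± 0.09 (SD) lay below the lowest array median of 6.25. Whether that is above background was not tested, so the fold is that of the deposited values.

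In these bulk samples a smaller share of cells with a transcript and less of it in each cell cannot be told apart. The 3 genes whose profile over the 6 arrays was most like that of IGFBP5, by the root mean square distance of values centred on each gene's mean, were CD96 (distance 0.09), GMPR (0.19) and PNMA5 (0.23). CD96 encodes an immunoglobulin-family receptor and GMPR a guanosine monophosphate reductase. CD96 went from 10.17 ± 0.07 to 5.53 ± 0.01, GMPR from 10.05 to 5.50 ± 0.18 and PNMA5 from 10.14 ± 0.03 to 5.69 ± 0.32 (mean ± SD, n = 3), the parent arrays of GMPR being identical as deposited. With 2 groups, this likeness mostly reflects the size of the group difference. The colony means of CD96, GMPR and PNMA5 all lay below the lowest array median of 6.25, as did that of IGFBP5. Whether they are above background was not tested.

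IGFBP2 (probe set 8048205), a soluble IGF binding protein, is the chromosomal neighbour of IGFBP5. Its values were 11.59, 11.62 and 11.64 in parent cells and 10.95, 10.93 and 11.07 in colonies. All colony arrays were below all parent arrays, by at least 0.53, and the difference was -0.64 ± 0.05. Along the chromosome, IGFBP2 and IGFBP5 are adjacent protein-coding genes on chromosome 2. The measured genes that flank the pair, the ribosomal protein gene RPL37A (-0.12 ± 0.07) and the transition protein gene TNP1 (-0.09 ± 0.06), did not pass the test (limma adjusted p = 0.24 and adjusted p = 0.289). The 50 nearest expressed genes had a median of -0.15, which leaves -0.49 for IGFBP2 and -4.62 for IGFBP5 when subtracted.

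The other measured binding proteins showed no such gap. IGFBP3 (probe set 8139488), the main carrier of IGFs in serum, was at 6.13, 6.34 and 6.14 in parent cells and 6.20, 6.17 and 6.08 in colonies, and the groups overlapped (-0.05 ± 0.07). The sign of so small a difference was not stable: it was 0.02 without parent replicate 2, and the nearest expressed genes had a median of -0.18, which leaves 0.14 when subtracted. Both group means lay below the lowest array median. IGFBP4 (probe set 8007100), an inhibitory binding protein cut by the protease PAPPA, was at 7.23, 7.27 and 7.45 in parent cells and 7.29, 7.28 and 7.27 in colonies. These groups overlapped too (-0.04 ± 0.06), and the parent arrays spread more widely (SD 0.12) than the colony arrays (SD 0.01). Without parent replicate 3 the difference was 0.03.

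The ligand gene IGF1 (probe set 7965873) had values of 4.52, 4.52 and 4.50 in parent cells and 4.62, 4.44 and 4.63 in colonies. The colony arrays lay on both sides of the parent arrays (0.05 ± 0.06), and all 6 were below the lowest array median, so whether the cells make IGF1 transcript was not tested. The nearest expressed genes had a median of -0.32, and subtracting it gave 0.37. IGF2 and INS share 1 probe set and are given no value.

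IGF1R was read by 2 probe sets that gave different sizes of difference. The brighter (7986359) had values of 10.44, 10.39 and 10.45 in parent cells and 10.55, 10.55 and 10.49 in colonies, a difference of 0.10 ± 0.04 with the groups 0.04 apart. The other (7986383) read 7.51, 7.39 and 7.44 in parent cells and 8.08, 8.16 and 8.04 in colonies. There all colony arrays were clearly higher, with a difference of 0.65 ± 0.06 (1.57-fold). The gap between the differences of the probe sets was 0.55, and their mean gave 0.37. Where in the gene these probe sets lie was not analysed here. The statement that IGF1R differed little therefore holds for the brighter probe set only.

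IGF2R (probe set 8123181), the cation-independent mannose 6-phosphate receptor, was at 9.50, 9.38 and 9.40 in parent cells and 9.35, 9.36 and 9.37 in colonies. The colony arrays were below the parent arrays by only 0.0057 at the nearest, and the difference was -0.07 ± 0.05. The nearest expressed genes (25 before and 13 after it along the chromosome) showed a median of -0.10, and subtracting it turned the sign to 0.03.

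The IRS adaptors, docking proteins that are phosphorylated by IGF1R and the insulin receptor, were the 2 genes at least 2-fold higher. IRS2 (probe set 7972745) had values of 7.87, 7.90 and 7.96 in parent cells and 9.01, 9.02 and 9.01 in colonies. The colony arrays were nearly identical, at least 1.05 above every parent array, and the difference was 1.10 ± 0.04. IRS1 (probe set 8059470) was at 6.72, 6.51 and 6.60 in parent cells and 7.70, 7.65 and 7.65 in colonies, a difference of 1.06 ± 0.06. Its groups were 0.93 apart at the nearest, and the parent arrays varied more (SD 0.11) than the colony arrays (SD 0.03).

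IRS2 ranked 375 and IRS1 418 among the 18417 genes by rise. Both genes lie away from each other in the genome, on chromosomes 13 and 2. Around IRS1 the nearest expressed genes had a median of -0.19 and around IRS2 of 0.02, so the differences became 1.25 and 1.08 when these were subtracted. The genes most like IRS2 over the 6 arrays were SNTB2, which encodes a syntrophin (distance 0.03, difference 1.14 ± 0.05), DCAKD (0.03, 1.13 ± 0.05) and INPP5B, an inositol phosphatase gene (0.03, 1.09 ± 0.04).

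**Figure D2:**
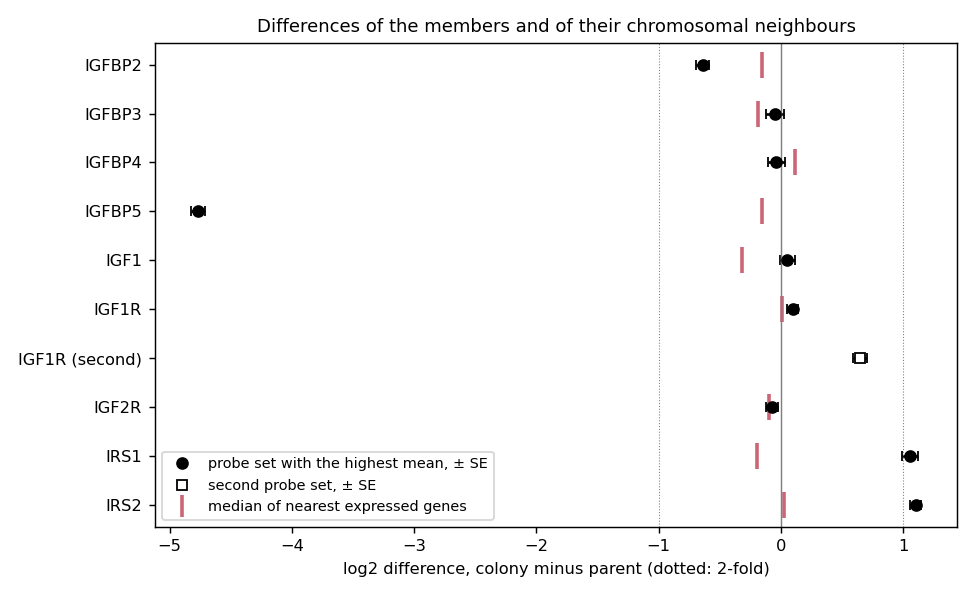
Log2 difference, colony minus parent, of each gene (horizontal axis) with the SE of the fit, for the brightest probe set (filled circles) and the second probe set of IGF1R (open square), and the median difference of up to 50 nearest expressed genes (red bars). IGFBP5 lies at -4.77 while its neighbours lie at -0.15, and the IGF1R probe sets lie at 0.10 and 0.65.

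The promoter windows of the 3 genes with the largest differences are shown because these genes differ most and because IRS1 and IRS2 stood higher together. The windows are RefSeq sequence of build GRCh38.p14, from 250 bases before to 50 bases after the annotated start, written 5′ to 3′ along the gene. Capitals mark matches on either strand to any of 7 motifs. They are the E-box CACGTG, bound by factors of the MITF and MYC families, and the related E-box form CATGTG. To these were added the core promoter element known as the TATA box, searched as TATAAA, with the looser spelling TATTTAA, and the GC box, which Sp1-family factors bind, searched as GGGCGG. The site of the AP-1 factors FOS and JUN was searched as TGANTCA, and the forkhead site that FOXO factors recognise as TGTTTAC.
IGFBP5 promoter, chr2:216695500-216695799, minus strand: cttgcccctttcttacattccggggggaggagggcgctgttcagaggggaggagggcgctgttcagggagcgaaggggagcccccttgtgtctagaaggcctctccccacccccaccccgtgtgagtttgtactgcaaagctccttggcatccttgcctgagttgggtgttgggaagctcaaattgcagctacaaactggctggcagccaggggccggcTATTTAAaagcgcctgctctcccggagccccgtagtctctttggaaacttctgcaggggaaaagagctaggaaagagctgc
IRS1 promoter, chr2:226799771-226800070, minus strand: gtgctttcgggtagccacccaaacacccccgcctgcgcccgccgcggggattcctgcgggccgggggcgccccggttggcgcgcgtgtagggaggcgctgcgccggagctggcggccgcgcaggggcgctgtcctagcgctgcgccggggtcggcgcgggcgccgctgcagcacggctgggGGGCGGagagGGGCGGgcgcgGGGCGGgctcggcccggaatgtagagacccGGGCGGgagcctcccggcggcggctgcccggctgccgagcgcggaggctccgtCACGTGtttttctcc
IRS2 promoter, chr13:109786534-109786833, minus strand: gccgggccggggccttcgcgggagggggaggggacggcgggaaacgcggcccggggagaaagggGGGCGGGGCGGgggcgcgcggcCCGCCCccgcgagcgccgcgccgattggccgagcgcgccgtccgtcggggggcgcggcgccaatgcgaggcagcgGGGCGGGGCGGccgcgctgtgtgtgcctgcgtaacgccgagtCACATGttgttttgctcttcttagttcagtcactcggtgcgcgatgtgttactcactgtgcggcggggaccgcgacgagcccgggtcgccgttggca
The windows differ in composition and in matches. The IGFBP5 window (59.0% G and C) holds 1 match, the looser TATA spelling, which starts 31 bases before the start site. That spelling was added after the window had been read, and it occurs in 4.52% of 35116 windows of the same length. The IRS1 window (79.3% G and C) holds 4 GC boxes and the first E-box. The IRS2 window (75.7%) holds 5 GC boxes, some of which overlap one another, and the second E-box form, read on the other strand as CACATG. Of all windows, 45% hold a GC box, 7.26% the first E-box and 11.1% the second. The strict TATA box (11.5% of all windows), the AP-1 site (7.71%) and the forkhead site (3.42%) had no match in these 3 windows. Among the windows of the other genes, that of IGF2R holds 3 matches to the first E-box. A match describes the letters only, and binding was not measured.

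The rest of the pathway was read from 112 further genes in 11 lists, of which 100 were measured and 12 were not analysed here. Of the 100, 43 rose and 26 fell (limma, adjusted p under 0.05 over all genes), against 20.9% higher and 22.9% lower among all genes, and 43.8% in either direction. Calls were more common among brighter genes. Of genes above the median expression 68% were called, and of the 76 pathway genes above it 64 were called. The median difference of the 100 genes was 0.08, beside 0.00 for all genes, and 5 of the called genes differed by at least 2-fold. In every alternative in which they were tested, 36 of the higher and 21 of the lower calls held.

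**Figure D3:**
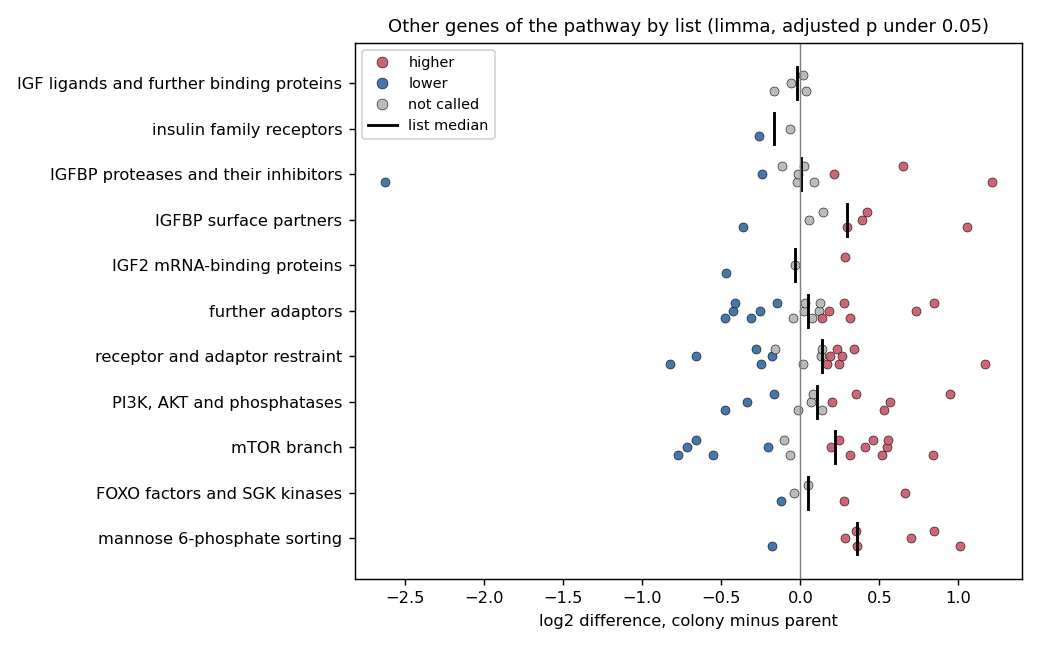
Log2 difference, colony minus parent (horizontal axis), of the 100 measured pathway genes, 1 point a gene, by list; colours give the call by limma at an adjusted p under 0.05 and black bars the list median. The point at -2.63 is STC1, and 6 of the 7 mannose 6-phosphate sorting genes lie above 0.

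Outside the cell, genes that act on the binding proteins went both ways, with 3 of 10 proteases and inhibitors higher and 2 lower. That is 50% called, beside 43.8% of all genes. STC1 encodes stanniocalcin-1, a secreted glycoprotein that inhibits the IGFBP protease PAPPA. It read 9.03, 9.18 and 9.11 in parent cells and 6.49, 6.49 and 6.47 in colonies, every colony array lying far below every parent array. The fall was -2.63 ± 0.05 (adjusted p = 1.14e-07). STC2, a second stanniocalcin gene, fell as well (-0.24 ± 0.05, limma adjusted p = 0.00769). Its means, 5.19 in parent cells and 4.94 in colonies, both lay below the lowest array median. PAPPA itself (0.02 ± 0.05) and PAPPA2 (-0.02 ± 0.04) did not pass, and their means of 4.74 to 4.79 lay below the lowest array median.

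Complement proteases, which can cleave IGFBP5, stood higher. C1S was at 5.03, 5.37 and 5.21 in parent cells and 6.42, 6.33 and 6.50 in colonies, so the groups did not overlap, and it rose by 1.21 ± 0.09 (adjusted p = 2.65e-05). Its parent mean lay below the lowest array median. C1R rose by 0.65 ± 0.05 and HTRA1, a secreted serine protease gene, by 0.21 ± 0.05. ADAM9 (-0.12), ADAM12 (-0.02) and KLK3 (0.08) did not pass the test. Both group means of ADAM12 and of KLK3 lay below the lowest array median.

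Among 7 listed partners of the IGFBPs, not all of them at the cell surface, 4 rose and 1 fell. That is 71.4% called, beside 43.8% of all genes. Of the 6 partners above the median expression 5 were called, beside 68% of all genes above it. ITGAV, the integrin alpha V gene, was at 9.29, 9.22 and 9.21 in parent cells and 10.27, 10.35 and 10.27 in colonies. All colony arrays were higher, and the rise was 1.06 ± 0.05 (adjusted p = 2.43e-06). LRP1 (0.42), an endocytic receptor gene, TMEM219 (0.39), which encodes a receptor of IGFBP3, and ITGB1 (0.30), the integrin beta 1 gene, also rose. ITGA5 (-0.36), the integrin alpha 5 gene, fell, and RXRA (0.15) and VTN (0.05) did not pass.

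Further ligand-side and receptor genes moved little. None of 4 measured further binding proteins (IGFBP1, IGFBP7, IGFBPL1 and IGFALS) passed the test in limma, beside 43.8% of all genes called. None of them reached an unadjusted p under 0.05, and their differences ran from -0.17 to 0.04. Only 1 of the 4 lay above the median expression. Both means of IGFBP7 (5.93 and 5.87) lay below the lowest array median, so whether its transcript is present was not tested. INSR, the insulin receptor gene, fell by 0.26 ± 0.05 on the log2 scale (adjusted p = 0.00201), from 7.34 to 7.07. INSRR (-0.06) did not pass, and both its means (5.84 and 5.77) lay below the lowest array median. Of the IGF2 mRNA-binding proteins, which control IGF2 and other messages, IGF2BP2 rose (0.28 ± 0.05) and IGF2BP3 fell (-0.47 ± 0.05). IGF2BP1 (-0.04) did not pass, again with both means (5.38 and 5.34) below the lowest array median.

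Mannose 6-phosphate sorting genes, which share the lysosomal route of IGF2R, were called in all 7 measured cases, 6 higher and 1 lower, with a list median of 0.36. All 7 lay above the median expression, where 68% of genes were called. GNPTG, a subunit gene of the enzyme that starts the mannose 6-phosphate tag, was at 9.04, 8.96 and 9.01 in parent cells and 10.01, 10.06 and 9.97 in colonies. The groups did not overlap, and it rose by 1.01 ± 0.05 (adjusted p = 3.06e-06). The sorting adaptor genes GGA2 (0.85) and GGA3 (0.70) rose, as did NAGPA (0.36), which finishes the tag, M6PR (0.35), the smaller mannose 6-phosphate receptor, and GNPTAB (0.28). GGA1 (-0.18, adjusted p = 0.0235) fell, which no longer passed under quantile normalization (adjusted p = 0.0755) or without parent replicate 3 (0.0541), colony replicate 1 (0.0795), colony replicate 2 (0.0605) or colony replicate 3 (0.0509). IGF2R, by contrast, had differed by -0.07, and the difference between it and these genes was not tested.

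**Figure D4:**
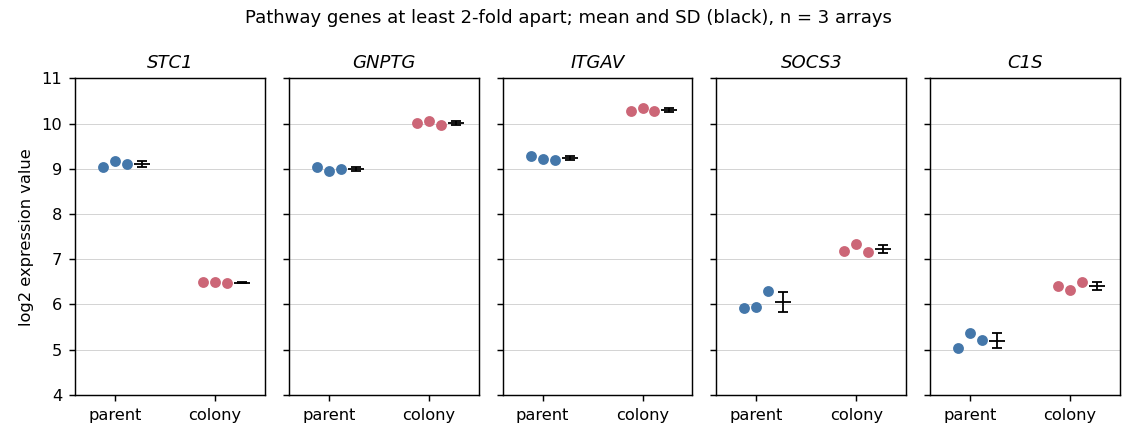
Log2 expression value (vertical axis) of the 5 pathway genes called with a difference of at least 2-fold, on the 3 parent arrays (blue) and the 3 colony arrays (red), with mean and SD in black. STC1 is lower and GNPTG, ITGAV, SOCS3 and C1S are higher on all colony arrays, with no overlap.

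Inside the cell, further adaptors went both ways, with 6 of 18 higher and 6 lower and a list median of 0.05. Of these, 4 higher and 5 lower calls held in every alternative; SHC3 and GRB2, named here after their values were seen, each lost the call in 5 of the 6 fits without an array. The docking protein genes GAB1 (0.84 ± 0.06) and GAB2 (0.73 ± 0.05) had the largest rises and PTPN11, the gene of the phosphatase SHP2, the deepest fall (-0.48 ± 0.05). Among 16 genes that restrain the receptor or its adaptors, 7 rose and 5 fell, of which 5 and 5 held in every alternative. Called shares were 66.7% of the further adaptors and 75% of the restraining genes, beside 43.8% of all genes. Above the median expression, 11 of 13 further adaptors and 11 of 14 restraining genes were called, beside 68% of all genes there. SOCS3, which can direct IRS proteins to degradation, was at 5.92, 5.94 and 6.30 in parent cells and 7.19, 7.33 and 7.16 in colonies. It rose by 1.17 ± 0.11 (adjusted p = 7.86e-05) without overlap, from a parent mean below the lowest array median. SOCS2, a feedback inhibitor of growth hormone signalling, fell (-0.82 ± 0.07), and so did NEDD4 (-0.66 ± 0.07), a ubiquitin ligase gene.

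Downstream, 5 of 12 PI3K, AKT and phosphatase genes rose and 3 fell, 4 and 2 of them in every alternative. PHLPP1, a phosphatase gene that acts on AKT, rose by 0.95 ± 0.07, INPP4B, a phosphoinositide phosphatase gene, by 0.57 ± 0.05 and PIK3R3, a regulatory subunit gene of PI3K, by 0.53 ± 0.05. Of the 3 that fell, PHLPP2, named here after its value was seen, fell most (-0.48 ± 0.05). The mTOR branch had 9 of 16 genes higher and 5 lower (8 and 4 in every alternative), with a median of 0.22. Called shares were 66.7% of the PI3K, AKT and phosphatase genes and 87.5% of the mTOR branch, beside 43.8% of all genes. Most of both lists lay above the median expression. There 8 of 11 and 13 of 14 were called, beside 68% of all genes. RICTOR, the defining subunit gene of mTOR complex 2, rose by 0.84 ± 0.05. DDIT4, a stress-induced inhibitor of mTOR complex 1, and RHEB, the GTPase that activates that complex, both fell (-0.77 ± 0.05 and -0.72 ± 0.06). The RHEB value is that of probe set 7927285, assigned by its annotated symbol. Whether it reads the RHEB gene itself or a related sequence was not tested. By limma, the adjusted p-value of PHLPP2 was 0.000254. Those of the other 6 genes named here lay between 9.61e-06 for DDIT4 and 7.63e-05 for PIK3R3.

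Of the 5 measured FOXO and SGK genes, 2 rose and 1 fell, or 60% called, beside 43.8% of all genes. FOXO4 rose by 0.66 ± 0.06 and FOXO1 by 0.27 ± 0.07, both encoding forkhead factors that AKT keeps out of the nucleus. FOXO1 did not pass without colony replicate 1 (adjusted p = 0.0677) or colony replicate 3 (0.0602). SGK1, a kinase gene related to AKT, was lower by a small amount (-0.12 ± 0.04, adjusted p = 0.0417), and it did not pass under quantile normalization (-0.05, adjusted p = 0.407) or in 5 of the 6 fits that left out an array.

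The labelled cell type was checked on marker genes. Of 9 measured melanocyte lineage markers 3 rose and 3 fell, or 66.7% called, beside 43.8% of all genes. Of the 8 markers above the median expression 5 were called, beside 68% of all genes above it. The largest falls were those of MLANA (-1.45 ± 0.04), a melanosome protein gene, and MC1R (-1.32 ± 0.04), the melanocortin receptor gene, while S100B (0.57 ± 0.05) had the largest rise. The third fall, of TYRP1 (-0.23), missed the threshold when parent replicate 3 was left out (adjusted p = 0.0749), likewise colony replicate 2 (0.0713) or colony replicate 3 (0.0864). The summed level of the list (log2 of the sum) was 14.06 to 14.08 in parent cells and 14.14 to 14.17 in colonies, a sum to which bright genes such as PMEL add most, with TYRP1 the only one below the lowest array median in both groups. None of 8 endothelial and 6 keratinocyte markers passed in limma, and 0 of either reached an unadjusted p under 0.05. Only 1 keratinocyte marker and 0 endothelial markers lay above the median expression, so low signal limits both lists. LUM and PDGFRA fell among 10 fibroblast markers, or 20% called, beside 43.8% of all genes. The sum of that list was 9.66 to 9.68 in parent cells and 9.57 to 9.58 in colonies. LUM did not pass without colony replicate 1 (adjusted p = 0.0576). LYZ (-2.35), FCER1G (-1.44) and CD68 (-1.27) fell among 7 leukocyte markers, or 42.9% called, beside 43.8% of all genes. The sum of that list went from 11.36 to 11.43 down to 10.16 to 10.21. PTPRC, the defining leukocyte gene, stood at 3.67 and 3.71. No value in the table is 0, and the part of these markers in the results was not tested. Across genes, which are not independent replicates, the correlation was 0.997 to 0.998 between arrays of the same group and 0.967 to 0.969 between groups.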

How the data were processed

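RNA of 3 parent and 3 colony samples was read on whole-transcript arrays; samples were grouped by title. The deposited log2 values per probe set come from Affymetrix Expression Console, per the submitters' processing notes; how it corrected, summarised and normalized them, and its version, were not given in the sources used. Of 33297 probe sets, 19460 had 1 gene symbol, 1754 several and 12083 none; 19429 of the first matched the RefSeq gene table (GRCh38.p14), used for names and gene order. The probe set with the highest mean was kept per gene, with no filter on dim genes. Colony minus parent differences were fitted with limma 3.58.1 in R 4.3.3 (lmFit and eBayes, 2-sided, Benjamini-Hochberg over 18417 genes), a procedure tested on simulated data. Figures used matplotlib 3.10.9. Arrays have no read depth, and their number limits the precision.

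The members and lists were chosen with earlier results of these data known. The genes named are all members, the 3 called genes with the largest difference in each pathway list, any gene of the shorter lists outside PI3K, mTOR, FOXO, restraint and further adaptors, the flanking genes, 3 most alike genes for IGFBP5 and IRS2, and markers as needed. SHC3, GRB2 and PHLPP2 were named besides, after their values were seen.

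The fit was repeated with array medians equalised, with quantile normalization, with genes above the median expression alone, with probe sets averaged per gene, with every probe set, with trended and robust eBayes, with the replicate number as a block, without each array in turn and, for members above the median expression, after taking off the median of their neighbours. Same-numbered samples of the groups did not deviate together (correlations -0.09, -0.06 and -0.01 across genes). These correlations gave no sign that the numbers pair the samples, but noise between arrays could hide a pairing, so they cannot exclude it.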

Additional observations from a re-analysis of the deposited data

How the results depend on the processing

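The counts of members at least 2-fold higher (2) and lower (1) were the same in every alternative run. IRS1 lay close to the 2-fold line, which is 1 on the log2 scale. Its difference was 1.01 ± 0.06 (SE) without parent replicate 2 and 1.03 after quantile normalization. Pathway genes called higher ranged from 37 to 41 and lower from 22 to 27 with an array left out. All genes called then ranged from 3384 to 3860 higher and from 3733 to 4494 lower. Quantile normalization gave 45 pathway genes higher and 21 lower, and 3944 and 4266 of all genes. Over all probe sets 4805 were higher and 5095 lower of 33297. Markers of other cell types called numbered 5, and from 4 to 7 with an array left out. They numbered 6 with trended and robust eBayes and 6 with the replicate number as a block. With only genes above the median expression, where fewer genes were tested, they numbered 3. With the replicate number as a block, 40 pathway genes were higher and 23 lower, and 3633 and 3931 of all genes. Whether the numbers pair the samples is not known. Taking off the neighbours' median, counted here only for members above the median expression, turned IGF2R from -0.07 to 0.026. For IGFBP3 and IGF1, below that median, it gave the 0.14 and 0.37 printed further up. Those values, with a change of sign for IGFBP3, are not among the counts that follow. For single members, 105 alternative values lay within 1 SD of the reported difference and 9 did not, IGF2R among them; the sign changed in 3, namely IGF2R, IGFBP3 (0.02 without parent replicate 2) and IGFBP4 (0.03 without parent replicate 3). Those beyond 1 SD included IGF1R, at 0.16 after quantile normalization and 0.37 as the mean of its probe sets, and IGFBP2, at -0.58 after quantile normalization. Low signal limits IGF1, IGFBP3 and the colony value of IGFBP5.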
